A study of Homo sapiens with 6 samples.

Results

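The genes described here encode the proteins of the large (60S) subunit of the cytosolic ribosome. They were the 48 genes of the RPL and RPLP families listed by symbol, with the expressed paralogues RPL22L1, RPL26L1 and RPL36AL and without pseudogenes, and 48 of 48 matched a row of the 60856-row deposited tables. All 48 passed the filter on low counts and stood among the 15490 genes tested. The data came from Jurkat, a human leukaemia line of T lymphocytes labelled wild type, read by strand-specific sequencing of poly(A)-selected RNA. The exposed group held 3 libraries (BPAF 1 to 3) of cells given 1 µM BPAF (bisphenol AF, the plastics monomer bisphenol A with fluorinated methyl groups). The vehicle group held 3 libraries (DMSO 1 to 3) of cells given 0.1% dimethyl sulfoxide (DMSO). The sample labels give 12 h of exposure and the treatment protocol gives 24 h, so the time is uncertain. The labels of the BPAF samples give no DMSO percentage, so whether the vehicle was matched is not known from them. Both groups came from a single cell line, and the 3 libraries of a group are called biological replicates by the series' design text.

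The large subunit joins amino acids at the peptidyl transferase centre, an active site made of ribosomal RNA. Its proteins hold that RNA in shape, contact the transfer RNAs, line the tunnel through which the new peptide leaves, and form the flexible P stalk that recruits the translation factors. Most of the proteins are needed in about equal numbers, and their messenger RNAs are among the most abundant in growing cells. Most of these messenger RNAs begin with a C and a run of pyrimidines, the 5′ terminal oligopyrimidine (TOP) tract, through which their translation follows growth signalling.

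RefSeq promoter entries (GRCh38.p14) were found for 41 of the 48 members. A start of the TOP type was taken as an annotated transcript start at a C that was followed by at least 4 bases that were each C or T, read on the transcribed strand alone. Such a start was found in 29 of the 41 (70.7%), against 1404 of all 27305 genes with an entry (5.14%). The windows below hold the 15 bases before the start and the first 15 of the transcript. They are given for RPLP0, RPLP1 and RPLP2 of the P stalk, the paralogue pairs, RPL9, RPL38 and the most abundant member. Capitals mark the C at the start and its pyrimidine run as far as the window reaches, and a window without capitals has no such run at its start.
RPLP0 (chr12:120201097-120201126, minus strand): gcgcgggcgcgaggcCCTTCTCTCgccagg
RPLP1 (chr15:69452803-69452832, plus strand): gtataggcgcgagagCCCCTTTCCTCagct
RPLP2 (chr11:809952-809981, plus strand): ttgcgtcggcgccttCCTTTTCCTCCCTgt
RPL22L1 (chr3:170870181-170870210, minus strand): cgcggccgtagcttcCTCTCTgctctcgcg
RPL22 (chr1:6199581-6199610, minus strand): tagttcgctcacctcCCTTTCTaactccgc
RPL26L1 (chr5:172958714-172958743, plus strand): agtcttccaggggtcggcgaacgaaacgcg
RPL26 (chr17:8383179-8383208, minus strand): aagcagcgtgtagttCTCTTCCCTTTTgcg
RPL36AL (chr14:49620612-49620641, minus strand): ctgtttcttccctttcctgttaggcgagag
RPL36A (chrX:101390996-101391025, plus strand): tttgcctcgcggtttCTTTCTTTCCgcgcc
RPL9 (chr4:39458908-39458937, minus strand): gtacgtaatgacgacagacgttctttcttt
RPL38 (chr17:74203663-74203692, plus strand): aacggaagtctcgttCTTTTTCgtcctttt
RPL41 (chr12:56116618-56116647, plus strand): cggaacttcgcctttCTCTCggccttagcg
Both RPL22 and RPL22L1 begin with such a run, whereas RPL26L1 and RPL36AL have none at their annotated starts and their partners RPL26 and RPL36A do. The annotated start of RPL36AL is a C with pyrimidines before it, but fewer than 4 follow it. In the window of RPL9 a pyrimidine run lies a few bases after the start. The lack of a match thus depends on where the start is annotated. A match describes the letters of the window and is not evidence of regulation, and the reads do not show which start was used.

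The libraries held 20253656 to 22617613 estimated counts with BPAF and 20745097 to 22117976 with DMSO. All 10 T-cell markers had counts in all 6 libraries, and CD3D, a subunit of the T-cell receptor complex, averaged 1131 TPM with BPAF and 1131 TPM with DMSO. Markers of other blood and tissue lineages were at or near 0 TPM except the B-cell gene CD79A (21.7 TPM with BPAF and 23.03 TPM with DMSO) and the globin genes HBB, HBA1 and HBA2 (25.3 to 42.7 TPM with BPAF and 29.4 to 44.7 TPM with DMSO). Genes with any count numbered 23404 to 23808 in BPAF libraries and 22712 to 23141 in DMSO libraries, with no overlap, and the part of this in the results below was not tested. The labels give no batch or date.

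Transcripts of the large subunit took a smaller part of the library after BPAF, and nearly every member was lower by a small amount. The 48 members held 3.29%, 3.37% and 3.22% of all counts in the BPAF libraries (mean 3.30 ± 0.075, SD, n = 3) and 3.60%, 3.45% and 3.77% in the DMSO libraries (3.61 ± 0.157). Every BPAF library was below every DMSO library. In edgeR's quasi-likelihood test with Benjamini-Hochberg adjustment over all tested genes, 26 of the 48 members (54.2%) fell and 0 rose. Over all tested genes 3.4% were called lower and 2.65% higher at the same threshold, an adjusted p under 0.05. The median log2 fold change (BPAF over DMSO) of the members was -0.17, where that of all tested genes was 0.0019. The fold change was below 0 for 47 members, against 49.2% of all tested genes, and in 35 members (72.9%) every BPAF library lay under every DMSO library, against 12.8% of all tested genes. The 26 members fell by 7.69% to 25.1%, and each of them was also called by DESeq2 without its filter, by limma-voom and by edgeR with an offset for GC content and exon length. At the threshold those tools called 29, 35 and 28 members lower, against 2.41%, 2.94% and 3% of all genes. With an unadjusted edgeR p, 39 members were under 0.05, all of them lower, as were 3076 of all 15490 genes in either direction. The 1 member above 0, RPLP2, had an unadjusted edgeR p of 0.978, and none of the other tools called it or any other member higher. The edgeR count was 12 without BPAF 1 and 13 without BPAF 3 or DMSO 1, where 1.11%, 1.44% and 1.7% of all genes were called lower.

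**Figure D1:**
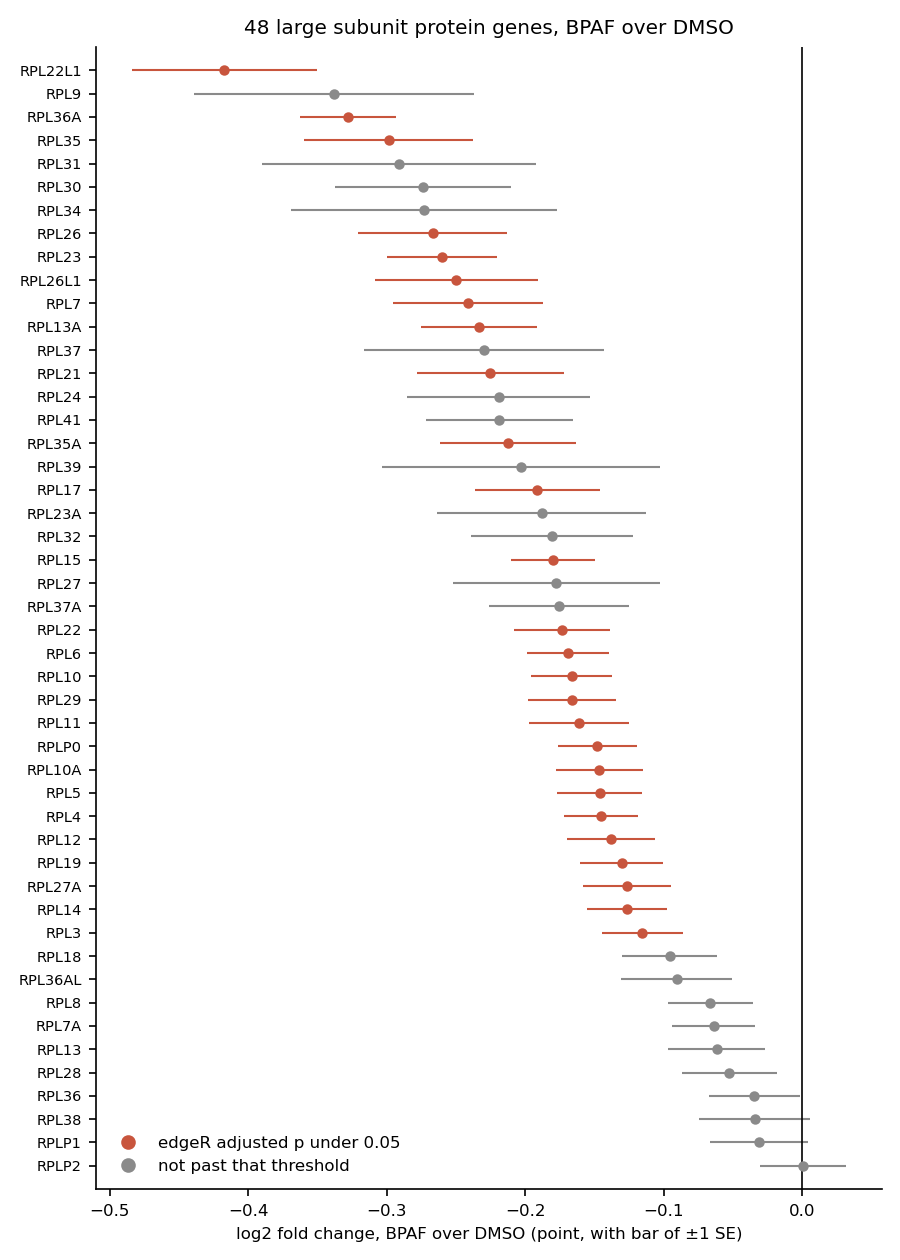
Log2 fold change of each of the 48 members, BPAF over DMSO (x axis), with bars of ±1 SE, ordered from the lowest at the top. The 26 points in red passed the edgeR threshold, and the points run between -0.42 for RPL22L1 and 0.0009 for RPLP2.

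These values are shares of each library's RNA. Fewer transcripts per cell, a change in the rest of the RNA and a change in the mix of cells cannot be told apart in bulk counts. Abundant genes were called more readily: 46 of the 48 members lay in the highest quintile of tested protein-coding genes by CPM, where 11.6% were called lower with a median log2 fold change of -0.026. In the quintile with the shortest exons, which held 23 members, 6.81% were called lower with a median of -0.044. On the deposited TPM the members' median log2 fold change was -0.087, where the median of all tested genes was 0.0775, and limma called 0 members lower and 0% of all 15490 genes lower. Its unadjusted p was under 0.05 for 28 members and for 2699 of all tested genes.

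The P stalk held 2 members that fell and 2 that did not pass. It is built from RPLP0, which anchors it, dimers of RPLP1 and RPLP2, which bind the factors that hydrolyse GTP, and RPL12 at its base. RPLP0 had 1799, 1853 and 1745 CPM (counts scaled by TMM to a common library total) in the BPAF libraries and 1994, 1973 and 2013 CPM in the DMSO libraries. All BPAF libraries were lower, and RPLP0 fell by 0.15 ± 0.028 on the log2 scale (SE, edgeR adjusted p = 0.00413). RPL12 had 412, 437 and 397.1 CPM with BPAF and 457.2, 456.4 and 457.3 CPM with DMSO, and fell by 0.14 ± 0.032 on the log2 scale (edgeR adjusted p = 0.0140). The call of RPL12 held in 3 of the 6 fits that left out a library, with adjusted p up to 0.0895, and that of RPLP0 held in all 6.

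The acidic stalk proteins did not pass. RPLP1 had 699.9, 731.7 and 685.8 CPM with BPAF and 737.8, 679.8 and 745.8 CPM with DMSO, so the groups overlapped (log2 fold change -0.031 ± 0.035, edgeR adjusted p = 0.698). RPLP2 had 396.5, 414.4 and 385.4 CPM with BPAF and 400.7, 388.3 and 406.4 CPM with DMSO. Its groups also overlapped, and its log2 fold change of 0.0009 ± 0.031 was the highest of the 48 (edgeR adjusted p = 0.995). Per length, RPLP2 stood at 82.0 ± 1.33 TPM for each 100 TPM of RPLP0 with BPAF and at 76.8 ± 0.429 with DMSO (SD, n = 3), with no overlap. RPLP1 stood at 35.9 ± 0.303 and 33.4 ± 1.46 TPM per 100 of RPLP0 in BPAF and DMSO libraries, again with no overlap. These ratios were not tested, and no share over ratios of other genes was made.

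RPL5 and RPL11 bind the 5S ribosomal RNA in a particle that joins the precursor of the 60S subunit. Both fell by about the median amount. RPL5 had 883.5, 905.4 and 878.8 CPM in BPAF libraries and 986.1, 941.9 and 1024 CPM in DMSO libraries (log2 fold change -0.15 ± 0.031, edgeR adjusted p = 0.00761). RPL11 had 716, 732.2 and 710.7 CPM with BPAF and 816.5, 751.7 and 845.9 CPM with DMSO (log2 fold change -0.16 ± 0.036, edgeR adjusted p = 0.0143). In both genes every BPAF library was below every DMSO library. The call of RPL5 was lost in 1 and that of RPL11 in 3 of the 6 fits without a library, with adjusted p up to 0.0673 and 0.0837.

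Of the 6 members near the catalytic centre and the transfer RNA sites, 4 fell. RPL36A, which lies at the exit site of the transfer RNA, had the smallest p of the 48. It had 199.2, 201.1 and 196 CPM with BPAF and 239.3, 245.1 and 264.1 CPM with DMSO. The BPAF libraries stood together well under the lowest DMSO library, and the log2 fold change was -0.33 ± 0.034 (edgeR adjusted p = 3.66e-05), so that its level fell by 20.3%. The call held in all 6 fits without a library, with adjusted p up to 0.00128. RPL10, which helps to position the transfer RNAs, had 1136, 1152 and 1113 CPM with BPAF and 1276, 1229 and 1312 CPM with DMSO. It fell by 0.17 ± 0.029 on the log2 scale (edgeR adjusted p = 0.00237), also in all 6 of those fits. RPL10A, the protein of the mobile L1 stalk, fell by 0.15 and RPL3, which reaches towards the catalytic centre, by 0.12 on the log2 scale (edgeR adjusted p = 0.00815 and 0.0234). The call of RPL10A held in 4 and that of RPL3 in 2 of those fits, with adjusted p up to 0.125 for RPL3. RPL36AL (-0.09) and RPL8 (-0.066) did not pass (edgeR adjusted p = 0.206 and 0.227).

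The value of RPL36A depends on how its reads were assigned, which the labels do not state. The read-through gene RPL36A-HNRNPH2 shares its exons and had a log2 fold change above 0 that did not pass (0.13, edgeR adjusted p = 0.720). That gene had 1705, 1542 and 1614 counts in BPAF 1 to 3 and 1609, 1118 and 1573 in DMSO 1 to 3. The pseudogene RPL36AP37 was itself lower (log2 fold change of -0.25 with an edgeR adjusted p of 0.0164), a call that held in 3 of the 6 fits without a library. It was listed at 2020 TPM with BPAF and 2419 TPM with DMSO. With its pseudogenes added, RPL36A fell by 0.30 on the log2 scale (edgeR adjusted p = 0.000334). The sum of RPL36A and the read-through gene, chosen after the values had been seen, was 278.1, 276.7 and 266.3 CPM with BPAF and 312.9, 299.5 and 340.7 CPM with DMSO. That sum did not overlap between the groups and had a log2 ratio of means of -0.22, so the size of the fall varied with the assignment and the direction did not in these sums. DMSO 2 was the lowest DMSO library in the sum but not for RPL36A alone. The SD of the DMSO libraries was 13.0 CPM for RPL36A alone and 21.0 CPM for the sum, which was not tested in edgeR.

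The 9 members of the exit tunnel and its rim, where the new peptide leaves and meets chaperones and targeting factors, held 6 falls and a median log2 fold change of -0.20. RPL35, at the rim, had 506.2, 499.5 and 495.4 CPM with BPAF and 597.3, 570.9 and 678.2 CPM with DMSO. All BPAF libraries were lower and close together, while DMSO 3 stood above the other DMSO libraries, and the log2 fold change was -0.30 ± 0.061 (edgeR adjusted p = 0.0393). RPL26 fell by 0.27, RPL26L1 by 0.25, RPL17 by 0.19, RPL4 by 0.14 and RPL19 by 0.13 on the log2 scale. The call of RPL4, which lines the tunnel, held in all 6 fits without a library, those of RPL26, RPL26L1 and RPL19 in 3, and those of RPL35 and RPL17 in 2, with adjusted p up to 0.174 for RPL35. RPL31 (-0.29), RPL39 (-0.20) and RPL23A (-0.19) did not pass (edgeR adjusted p from 0.210 to 0.369). RPL23A shares sequence with the pseudogene RPL23AP42, listed at 2001 TPM with BPAF and 2081 TPM with DMSO, above RPL23A itself, so its value is uncertain. The read-through gene RPL17-C18orf32 shares exons with RPL17, and their summed level was 764.3 ± 20.5 CPM with BPAF and 870 ± 66.3 CPM with DMSO (log2 ratio -0.19).

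The ratio within the pair did not overlap between the groups for 2 of the 3 paralogue pairs, which was not tested. No share over ratios of other gene pairs was made. In CPM, 24.8% of all tested genes did not overlap between the groups, in either direction. RPL22 binds RNA at the outer surface of the subunit and is needed for normal development of T cells in mice, and RPL22L1 is its close copy, which can take its place. RPL22L1 (chr3:170864875-170870483, GENCODE 29, GRCh38) had 31.9, 37.8 and 31.4 CPM with BPAF and 45.1, 42.5 and 47.0 CPM with DMSO. It fell by 25.1%, the most of the 48 (log2 fold change -0.42 ± 0.067, edgeR adjusted p = 0.00155). Its call held in all 6 fits without a library, with adjusted p up to 0.0165. RPL22 had 491.4, 497.0 and 495.5 CPM with BPAF and 569.4, 521.3 and 582.1 CPM with DMSO, and its log2 fold change was -0.17 ± 0.035 (edgeR adjusted p = 0.00674). Without DMSO 1 the edgeR adjusted p of RPL22 was 0.0503. Per length, there were 6.00, 6.69 and 6.10 TPM of RPL22L1 for each 100 TPM of RPL22 in BPAF libraries and 7.28, 7.14 and 7.45 in DMSO libraries. That ratio was lower in every BPAF library, at 6.27 ± 0.371 against 7.29 ± 0.153 (SD, n = 3).

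RPL26 lies at the tunnel exit, and its minor copy RPL26L1 kept close to it. RPL26L1 had 45.9, 48.2 and 42.8 CPM with BPAF and 52.4, 51.4 and 59.0 CPM with DMSO (edgeR adjusted p = 0.0162), and RPL26 had 604.8, 624.5 and 595.5 CPM with BPAF and 708.9, 686.7 and 799.7 CPM with DMSO (edgeR adjusted p = 0.0276). Each was lower in all BPAF libraries, and each call held in 3 of the 6 fits without a library, with adjusted p up to 0.0933 for RPL26L1 and 0.145 for RPL26. There were 4.59 ± 0.149 TPM of RPL26L1 per 100 of RPL26 with BPAF and 4.47 ± 0.048 with DMSO (SD, n = 3), a difference within the spread of the libraries.

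RPL36AL encodes nearly the same protein as RPL36A from another chromosome. It had 118.4, 126.4 and 120.2 CPM with BPAF and 134.6, 121.9 and 131.8 CPM with DMSO, and the groups overlapped. There were 72.3, 77.8 and 75.0 TPM of RPL36AL per 100 of RPL36A in BPAF libraries and 69.5, 61.5 and 60.5 in DMSO libraries. The ratio was higher in every BPAF library, at 75.0 ± 2.77 against 63.8 ± 4.91 (SD, n = 3), within the limit given above for the reads of RPL36A.

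**Figure D2:**
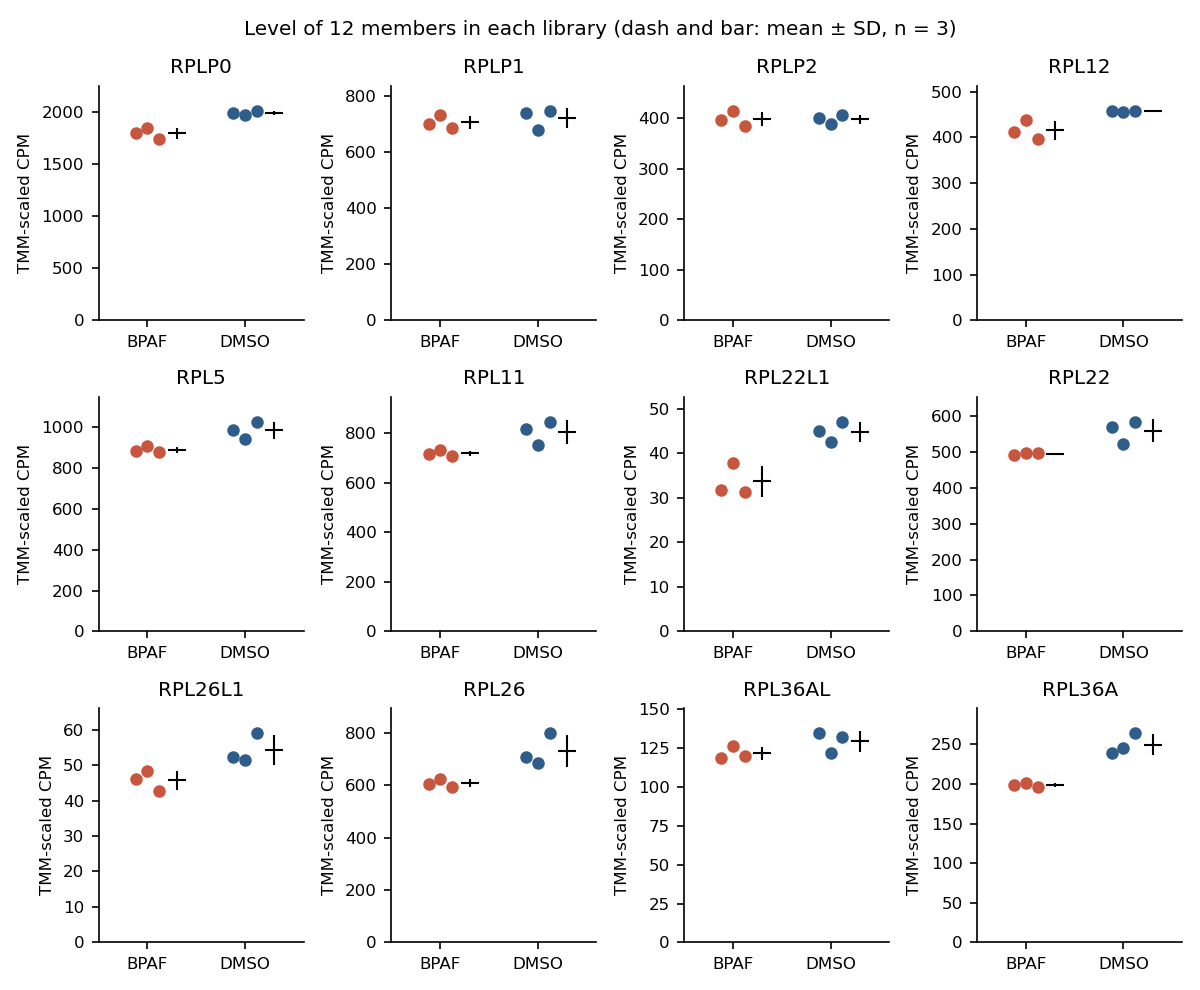
Level in TMM-scaled CPM (y axis, from 0) of the P stalk, the 5S particle members and the paralogue pairs in each BPAF library (red, left) and each DMSO library (blue, right), with the mean and SD of 3 libraries as a dash and bar. The groups overlap for RPLP1, RPLP2 and RPL36AL and are apart for the other 9 genes.

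The other 27 members held 12 falls, a median log2 fold change of -0.18 and 20 genes whose groups did not overlap. RPL15, a core protein bound to the 28S ribosomal RNA, had 934.8, 975.1 and 928.4 CPM with BPAF and 1063, 1043 and 1110 CPM with DMSO (log2 fold change -0.18 ± 0.030, edgeR adjusted p = 0.00166). RPL6 had 1223, 1250 and 1223 CPM with BPAF and 1365, 1347 and 1444 CPM with DMSO (log2 fold change -0.17 ± 0.030, edgeR adjusted p = 0.00233). In both genes the BPAF libraries lay close together and under all DMSO libraries. RPL23 (-0.26), RPL7 (-0.24), RPL13A (-0.23), RPL21 (-0.23), RPL35A (-0.21), RPL29 (-0.17), RPL14 (-0.13) and RPL27A (-0.13) fell as well. The calls of RPL15, RPL6, RPL23, RPL13A and RPL29 held in all 6 fits without a library, and those of RPL7, RPL21, RPL35A and RPL27A in 2.

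RPL9, which lies at the base of the P stalk, had the second lowest fold change of the 48 but did not pass. It had 268.6, 269.3 and 264.5 CPM with BPAF and 316.6, 309.7 and 388.3 CPM with DMSO. The groups did not overlap, but DMSO 3 was far above the other DMSO libraries, and the log2 fold change was -0.34 ± 0.101 (edgeR adjusted p = 0.168). Without DMSO 3 it was -0.23 (edgeR adjusted p = 0.000271), and with all libraries RPL9 passed in DESeq2 without its filter (adjusted p = 0.0461) and in limma-voom (adjusted p = 0.0105). RPL38, for which mouse mutants have defects of the axial skeleton, had 240.2, 252.3 and 246.2 CPM with BPAF and 256.3, 234.1 and 266 CPM with DMSO, which overlapped (log2 fold change -0.034 ± 0.040, edgeR adjusted p = 0.710). Of the remaining members that did not pass, RPL30 (-0.27), RPL34 (-0.27), RPL37 (-0.23), RPL24 (-0.22), RPL41 (-0.22), RPL32 (-0.18), RPL27 (-0.18) and RPL37A (-0.18) had log2 fold changes at or under the members' median. RPL18 (-0.095), RPL7A (-0.064), RPL13 (-0.062), RPL28 (-0.053) and RPL36 (-0.034) were nearer to 0. These small values moved with single libraries: RPL18 had -0.061 without BPAF 3 and -0.14 without BPAF 2 (edgeR adjusted p = 0.0227), RPL13 -0.029 without DMSO 3 and -0.098 without BPAF 2, RPL28 -0.012 without BPAF 3 and -0.087 without BPAF 2, and RPL36 -0.016 without BPAF 3 and -0.072 without DMSO 2. In all, 13 of the 22 members that did not pass were called in at least 1 fit without a library. A call in any of 6 fits is a looser rule than a call in 1 fit. The share of all uncalled genes that met it is not given here, so the 13 cannot be set against a background. The gene antisense to RPL30, RPL30-AS1, was also lower (log2 fold change -0.38, edgeR adjusted p = 0.0407). The labels do not state whether the counting used strand, so reads of the pair may be mixed.

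On the deposited TPM scale, which allows for gene length, the members ran over an 84.1-fold range about a median of 2212 TPM, where the median of all tested genes was 13.0 TPM. In all, 42 members had a mean above 1000 TPM. RPL41, which encodes the smallest ribosomal protein, had 7235, 7580 and 6950 TPM with BPAF and 8081, 8041 and 8499 TPM with DMSO, and even its lowest library was above the highest of any other member. Next came RPL35, with 3559, 3463 and 3498 TPM with BPAF and 4042, 4085 and 4468 TPM with DMSO, and RPL10, with 3660, 3647 and 3632 TPM with BPAF and 3878, 3819 and 3823 TPM with DMSO. The ranges of these and of the members next in order overlapped, so their order is not resolved. At the low end, RPL36AL had 392.8, 414.7 and 403.2 TPM with BPAF and 426.6, 399.7 and 405.9 TPM with DMSO. RPL26L1 had 140.1, 143.8 and 131.6 TPM with BPAF and 150.8, 152.2 and 168.6 TPM with DMSO. RPL22L1 had 78.1, 84.9 and 79.5 TPM with BPAF and 106.2, 94.9 and 107.9 TPM with DMSO. The ranges of these 3 paralogues did not overlap one another or that of RPL36A above them. The order depends on the length given to each gene: when counts were divided by the union of annotated exons, the order correlated with the TPM order only with Spearman's rho of 0.584 (across 48 genes, which are not independent replicates).

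**Figure D3:**
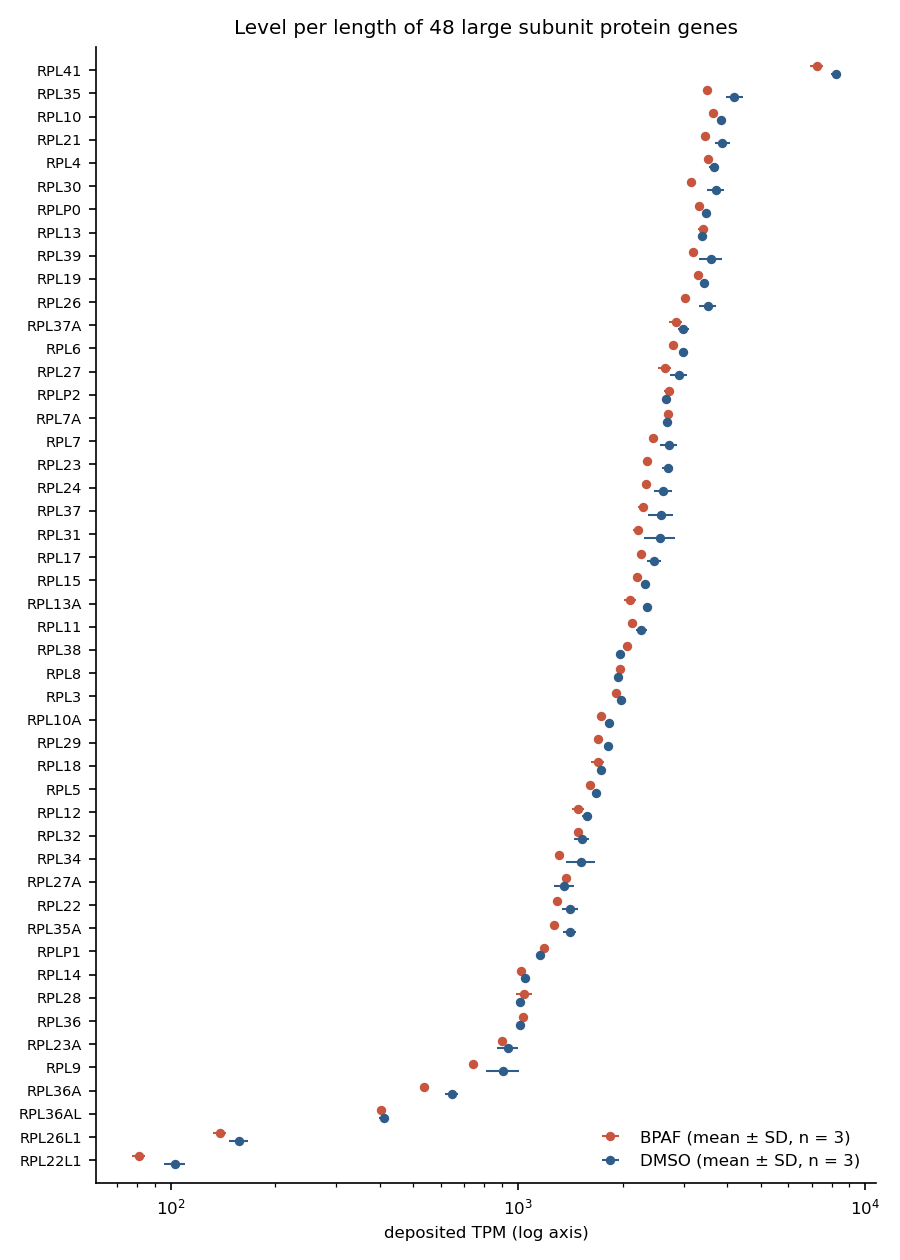
Deposited TPM (x axis, log scale) of the 48 members in order of their mean over 6 libraries, with the mean and SD of 3 BPAF libraries in red above those of 3 DMSO libraries in blue. RPL41 stands apart at the top at 7731 TPM and RPL22L1 lies lowest at 91.9 TPM.

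The members shifted in one direction within several single libraries, controls among them. Relative to the mean of the DMSO libraries, the median deviation of the 48 members in log2 CPM was -0.17, -0.13 and -0.20 in BPAF 1 to 3 and 0.0007, -0.081 and 0.068 in DMSO 1 to 3. All 48 members lay below that mean in BPAF 1, BPAF 3 and also in DMSO 2, 42 did so in BPAF 2, and 0 did so in DMSO 3. The same counts were not made over all tested genes, so these have no background. The mean is that of the DMSO libraries themselves, so in each gene a DMSO library below it requires another above it. The gap between the medians of BPAF 2 and DMSO 2 was small beside that of BPAF 3 and DMSO 3. The number of members that passed depended on which libraries entered the fit. Beside the fits given above, those without BPAF 2, DMSO 2 and DMSO 3 called 23, 37 and 28 members lower, where 2.42%, 3.4% and 2.22% of all tested genes were called lower. Of the 26 members, 10 were called in all 6 of these fits, 9 in 3 to 5 and 7 in 1 or 2.

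**Figure D4:**
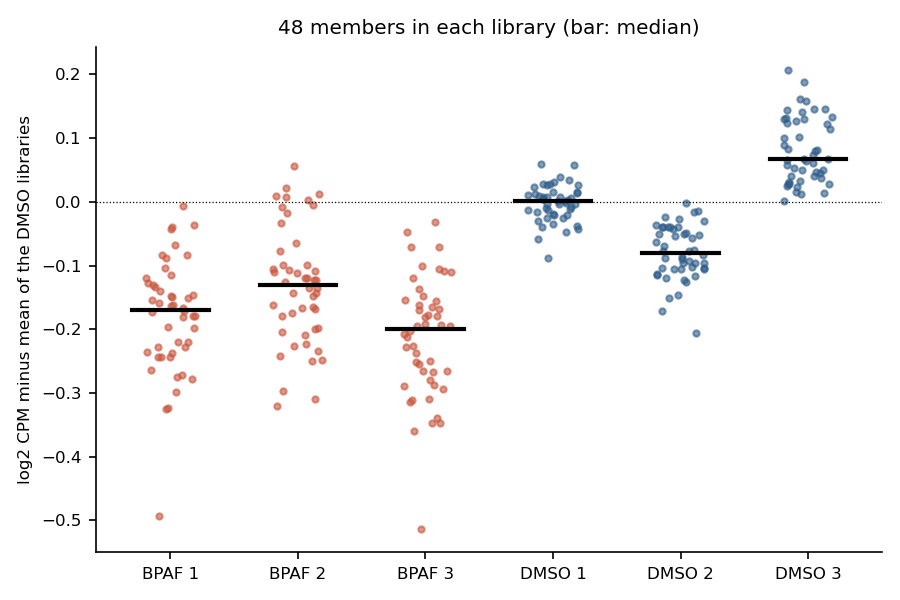
Deviation of each member in each library (points, log2 CPM minus the mean of the DMSO libraries), with the median as a bar. Medians are -0.17, -0.13 and -0.20 in the BPAF libraries (red) and 0.0007, -0.081 and 0.068 in the DMSO libraries (blue), so DMSO 2 lies nearest to the BPAF libraries.

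To compare the members with one another, counts were rescaled so that the geometric mean of the 48 was equal in every library. On that scale RPL22L1 (log2 fold change -0.24 ± 0.081, edgeR adjusted p = 0.0168) and RPL9 (-0.16 ± 0.061, edgeR adjusted p = 0.0358) were called lower than the set. RPLP2 (0.17 ± 0.058, edgeR adjusted p = 0.0171) and RPLP1 (0.14 ± 0.055, edgeR adjusted p = 0.0360) were called higher, and the other 44 did not depart from the set at the threshold. The scale lifts all other genes, and 28.8% of all tested genes were called higher and 0.219% lower on it, which by construction makes the adjustment lenient. The unadjusted edgeR p were 0.00268 for RPL22L1, 0.00868 for RPL9, 0.00275 for RPLP2 and 0.00877 for RPLP1. No adjustment over the 48 members alone was made, so the calls rest on the lenient one. The calls also rested on the full set of libraries: RPL22L1 was called in 3 of the 6 fits without a library, RPLP1 and RPLP2 in 2 and RPL9 in 1.

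Members with less G and C had lower fold changes. Across the 48 members the log2 fold change correlated with the GC content of the coding sequence (Pearson's r = 0.60, Spearman's rho = 0.57, across genes that share the same libraries), and little with the log2 of coding length (r = 0.16). The 16 members with the lowest GC content (40.4% to 47.5%) had a median log2 fold change of -0.23, the middle 16 of -0.18 and the 16 with the highest (53.8% to 62.2%) of -0.12, with 9, 8 and 9 called lower. Over 12328 tested protein-coding genes the fold change also correlated with the GC content of the transcript, more weakly (r = 0.15, rho = 0.23). The difference between 2 control libraries, DMSO 3 minus DMSO 2, correlated with coding GC content across the members as well (r = -0.54, rho = -0.56). With the GC content of the transcript and exon length as an offset in the fit, r with coding GC content was 0.50 and the members' median was -0.17. The offset did not use the GC content of the coding sequence, so it did not adjust for that measure itself. Whether GC content has a part in the fold changes was not tested beyond that offset.

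**Figure D5:**
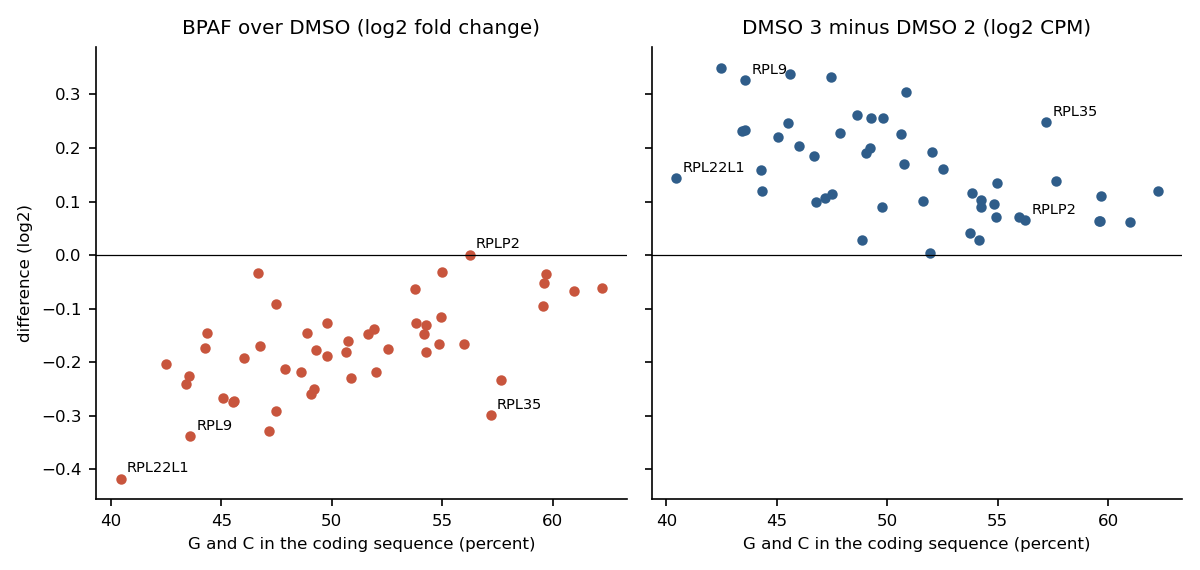
GC content of the coding sequence (x axis, percent) of the 48 members against their log2 fold change, BPAF over DMSO (left, red), and against the difference of DMSO 3 and DMSO 2 in log2 CPM (right, blue), with 4 members named. Both panels show a relation with GC content, with r = 0.60 on the left and r = -0.54 on the right.

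The members were also split by transcript start. Of the 29 with a start of the TOP type, 15 fell (median log2 fold change -0.17), of the 12 with an entry and no such start 8 fell (-0.17), and of the 7 with no entry 3 fell (-0.23). No test of the difference between these sets was made.

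Other parts of the translation machinery were read beside the members at the same threshold, where 3.4% of all tested genes were called lower and 2.65% higher. Among the 32 genes of the small (40S) subunit 14 fell and 0 rose in edgeR, and the log2 fold change was below 0 for all 32, with a median of -0.17. RPSA, which is also known as a laminin receptor, fell by 0.21 and RPS13 by 0.17 on the log2 scale (edgeR adjusted p = 0.000585 and 0.00735). The call of RPSA held in all 6 fits without a library and that of RPS13 in 3, with edgeR adjusted p up to 0.0577 for RPS13. The count of 14 was 3 without BPAF 1, 2 without BPAF 3, 6 without DMSO 1 and 26 without DMSO 2. Counts of the large subunit were 1.474 ± 0.003 times those of the small subunit in BPAF libraries and 1.476 ± 0.014 times in DMSO libraries (SD, n = 3), a difference within the spread. RPL39L, a copy of RPL39 known from the testis, did not pass (-0.093, edgeR adjusted p = 0.457).

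Of 21 other genes listed from general knowledge as TOP genes, among them translation factors and snoRNA host genes, 9 fell and 0 rose in edgeR (median log2 fold change -0.089), and 20 of the 21 were below 0. Of the 15 with a promoter entry, 11 had a start of the TOP type as searched here. SNHG1, a host gene of small nucleolar RNAs, fell by 0.37, NPM1, which encodes a nucleolar chaperone of ribosome assembly, by 0.20, and EIF3E, a subunit of an initiation factor, by 0.21 on the log2 scale (edgeR adjusted p = 2.96e-05, 0.000875 and 0.000977), and 5 of the 21 were called lower without BPAF 1 or without BPAF 3. Of 41 genes for the assembly of the 60S subunit, 6 (14.6%) fell and 1 rose (median log2 fold change -0.053). In the highest quintile of tested protein-coding genes by CPM, 11.6% were called lower. NSA2, an assembly factor of the 60S precursor, fell by 0.22 and RSL24D1, which holds the place of RPL24 in it, by 0.30 on the log2 scale, and the helicase gene DDX51 rose by 0.17 (edgeR adjusted p = 0.00137, 0.00804 and 0.0107). The call of NSA2 held in all 6 fits without a library, that of RSL24D1 in 5 and that of DDX51 in 4. The edgeR adjusted p went up to 0.0773 for RSL24D1 and 0.0648 for DDX51. The 6 falls numbered 2 without BPAF 1 and 3 without BPAF 3 or DMSO 3.

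Pseudogenes of the members, which are retroposed copies of their messenger RNAs, had 2.10 ± 0.057 counts for each 100 member counts with BPAF and 1.97 ± 0.010 with DMSO (SD, n = 3). Of 25 that could be tested, 2, RPL36AP37 and RPL29P4, were lower and 1, RPL32P3, was higher (log2 fold change 0.25, edgeR adjusted p = 0.0150). These calls held in 3, 1 and 2 of the 6 fits without a library, in that order. When each member's pseudogene counts were added to it, 26 members were called lower, against 527 of all 15490 tested genes. Whole-number counts in all 6 libraries were found for 7 members (tolerance 1e-09), so the counts of the other 41 held fractions in at least 1 library, and 2 of those 7, RPL11 and RPL35A, fell.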

How the data were processed

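RNA was sequenced from 6 Jurkat libraries. Per the submitters' processing notes, FastQC, cutadapt, HISAT2 and featureCounts were used with the builds GRCh38 and hg38, and no versions are given. The authors deposited estimated counts per gene with decimals, and a TPM table in which every library sums to the same total. The sources used here do not give how the fractions and the TPM were made or whether counting used strand.

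Estimated counts were rounded to whole numbers. Symbols were found for 42028 of 60664 Ensembl identifiers, and 58396 were in GENCODE release 29 (GRCh38), which gave positions, exon length and GC content. The annotation the authors counted on is not stated in them.

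In edgeR 4.0.16 (R 4.3.3, limma 3.58.1), filterByExpr and TMM scaling were followed by the quasi-likelihood test, with robust dispersions, no covariate and Benjamini-Hochberg adjustment over all 15490 tested genes at 0.05. The SE is the size of the log2 fold change divided by the square root of F. CPM are TMM-scaled, and TPM were tested as log2(TPM + 1) with limma. The biological coefficient of variation was 3.77%, and any 2 libraries of a group differed by more than sampling noise (chi-square over degrees of freedom 2.37 to 4.15). The relative test used the members' geometric mean as the scale. DESeq2 1.42.0 was an alternative. The tests were checked on simulated counts. Summaries were made in Python 3.11.15 (numpy 2.4.6, pandas 2.3.3).

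The members, gene lists, roles and the rule for named genes were chosen with earlier results of these data known. The rule gives library values for the paralogue pairs, the stalk, the 5S particle, the 5 smallest and 3 largest p, the 3 highest and 3 lowest mean TPM and any departure in the relative test, and up to 3 genes of each other list by smallest p. Some results for genes outside the members are not reported here. No pairing by replicate number was assumed in the main fit. Deviations of BPAF and DMSO libraries with the same number correlated with r of 0.0010, -0.043 and 0.014, so no shared signal was seen. Such values cannot show whether the libraries were handled in pairs. The protein sequences of the members were not used here.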

Additional observations from a re-analysis of the deposited data

How the results depend on the processing

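The count of members called lower was 22 to 35 under other scalings, filters, tools and offsets. It was 25 with RLE scaling, 23 with upper quartile scaling and 30 in DESeq2 with its filter, where 514, 400 and 421 of 15490 genes were called lower. It was 34 with no count filter and 22 on protein-coding genes only, where 736 of 30134 and 386 of 12335 genes were called lower. With limma on the deposited TPM it was 0 under each of 3 settings, where 0 of all tested genes were called lower. There, 28, 29 and 23 members (against 39 in edgeR) and 2699, 2666 and 3100 of all tested genes had an unadjusted p under 0.05. Leaving out each library gave 12 to 37 members called lower in edgeR. With TPM the median log2 fold change of the members was -0.087 against 0.0775, 0.0892 and 0.0448 for all genes, and RPL7A (0.0086), RPL8 (0.015), RPL13 (0.0083), RPL27A (0.018), RPL28 (0.039), RPL36 (0.027), RPL38 (0.064) and RPLP1 (0.038) had log2 fold changes above 0 and the other 40 kept their sign, and the cause was not tested. Leaving out each library gave RPL38 -0.088 (without DMSO 2) to 0.0034 (without DMSO 3) and RPLP2 -0.029 (without BPAF 2) to 0.025 (without BPAF 3), with -0.021 without DMSO 2. RPLP2 also had -0.0029 with no count filter, -3.09e-05 in limma-voom, -0.022 with the length and GC offset with or without the replicate block, -0.0040 with GC alone and -0.021 with length alone. Counts divided by exon length gave a median level of 172.8, on another scale than TPM. In the relative test 0 members departed with the replicate block (adjusted p = 0.0790 for RPL22L1, 0.154 for RPL9, 0.103 for RPLP2 and 0.143 for RPLP1), and 0 to 13 when a library was left out.

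Small subunit genes called lower numbered 9 with upper quartile scaling, 9 with the replicate block and 2 to 26 without a library. Assembly genes called lower numbered 2 to 6, and other TOP genes 5 to 10, without a library. Upper quartile scaling and the replicate block called 400 and 449 of all 15490 tested genes lower. The fits without a library called 1.11% to 3.4% of all tested genes lower. With the replicate number as a block 24 members were called lower (RPL3 and RPL26L1 had edgeR adjusted p of 0.0548 and 0.0503), and 24 with the block and the offset together. In these 2 fits 449 and 458 of all 15490 tested genes were called lower. The offsets for GC alone (23 members) and length alone (28) and the addition of pseudogene counts (26) were chosen after seeing the data. Of all 15490 tested genes, 421, 569 and 527 were called lower in these fits. With 3 libraries a group, an exact permutation test of a single value cannot go below p = 0.1. Depth was 20253656 counts or more in every library.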
